A study of Mus musculus with 6 samples.

Results

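The amino acid and endoplasmic reticulum (ER) stress response was followed through 31 genes, chosen by name from the 56691 genes of the deposited table. They fall into an ATF4 branch of 11 genes, an ER chaperone branch of 17 genes and 3 transducers of the unfolded protein response. The 31 symbols matched 32 rows of the table, because Ddit3 has a second entry (ENSMUSG00000116429) with 0 counts in all 6 libraries, and the other entry was used. RNA sequencing covered 6 libraries of a mouse macrophage line, spelled RAW246.7 in the labels and called wild type with no strain named. All 6 cultures were pretreated with lipopolysaccharide (LPS), a component of bacterial outer membranes that activates macrophages. They then spent 24 h on an MSA-ZW hydrogel (3 libraries) or an MSA-DA hydrogel (3 libraries). No culture without LPS or away from a gel was among the samples, so the data compare the gels and do not give a level before stress. Differences are MSA-DA relative to MSA-ZW.

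Cells meet a shortage of amino acids or a load of unfolded protein with connected programmes. Kinases that sense these conditions phosphorylate the initiation factor eIF2, which lowers general protein synthesis but favours translation of the transcription factor ATF4, and ATF4 then raises genes for amino acid synthesis, transport and feedback. In the ER itself, the sensors ATF6 and IRE1 (encoded by Ern1) activate genes for chaperones, disulfide-forming enzymes and ER-associated degradation, IRE1 by splicing the messenger RNA of Xbp1. Much of this control acts on phosphorylation, splicing, cleavage or translation, which gene-level counts do not measure.

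Count totals ranged from 14374912 to 18346615 per library. Of the 10 macrophage markers, 9 had a mean of at least 1 CPM (counts scaled to a library's effective size), and Mertk did not. Their summed level was 5691 to 5762 CPM on MSA-ZW and 4953 to 5020 CPM on MSA-DA, and its part in the results was not tested. Fibroblast, epithelial and T cell lists summed to at most 0.494 CPM in any library, the 3 endothelial genes to at most 1.87 CPM and the 5 neutrophil genes to at most 1.78 CPM. Epcam, Cdh1, Krt18, Cd3d, Cd8a, S100a9, Mpo and Dcn were at 0 in every library. Mitochondrial transcripts made up 2.73% to 2.78% of counts on MSA-ZW and 3.10% to 3.12% on MSA-DA. The 18S-like locus Rn18s-rs5 made up 0.238% to 0.449% and 0.132% to 0.141%, highest in MSA-ZW replicate 2. With mitochondrial and ribosomal RNA-like loci left out, the count of changed genes in each branch was the same. The labels do not state whether replicate libraries are separate cultures, so p-values cover only the spread among the 6 libraries, which may be technical. In bulk RNA, fewer cells of a kind and less RNA per cell cannot be told apart.

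Known stress response elements were searched for in the promoters of these genes. RefSeq promoter sequences (build GRCm38.p6) were matched for 28 of the 31 genes, and the 250 bases before each start were searched on both strands. The ER stress response element, CCAAT and CCACG with 9 bases of any kind between them, is known to be bound by ATF6 together with NF-Y. It was found in 7 of 15 matched ER chaperone genes, 0 of 11 ATF4 branch genes and 0.113% of all 32851 promoters. The windows are shown because these 7 genes share an element, and their differences between the gels are given together further on. Each is written 5′ to 3′ on the gene's strand, with the element in capitals. In Hsp90b1, Calr and Creld2 the element shown lies on the opposite strand, and Hsp90b1 holds a second one farther from the start.
Hspa5 (chr2:34772005-34772063, plus strand): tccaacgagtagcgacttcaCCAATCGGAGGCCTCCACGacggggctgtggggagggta
Hsp90b1 (chr10:86705513-86705571, minus strand): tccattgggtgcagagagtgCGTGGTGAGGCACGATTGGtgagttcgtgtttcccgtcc
Canx (chr11:50325780-50325838, minus strand): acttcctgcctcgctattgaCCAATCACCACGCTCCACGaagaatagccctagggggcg
Calr (chr8:84847055-84847113, minus strand): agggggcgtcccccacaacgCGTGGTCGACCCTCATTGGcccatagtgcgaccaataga
Creld2 (chr15:88819500-88819558, plus strand): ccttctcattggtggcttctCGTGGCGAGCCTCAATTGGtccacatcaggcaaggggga
Dnajc3 (chr14:118937807-118937865, plus strand): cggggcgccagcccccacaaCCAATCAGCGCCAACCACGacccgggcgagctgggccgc
Pdia6 (chr12:17266471-17266529, plus strand): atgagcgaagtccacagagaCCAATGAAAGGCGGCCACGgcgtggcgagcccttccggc

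A related element, ATTGG and CCACG with 1 base between them, was found in Herpud1 and in 0.0304% of all promoters. The C/EBP-ATF response element, searched as TGATGNAA, is the type of site that ATF4 binds with a C/EBP partner. It was found in 2 of 11 ATF4 branch genes, Asns and Chac1, in Herpud1 among the 15 ER chaperone genes, and in 3.45% of all promoters. An XBP1-type element, TGACGTG, was found in Hspa5 alone among the matched genes and in 1.65% of all promoters. The windows show the elements in the gene for asparagine synthetase, in Chac1 (on the opposite strand) and in Herpud1 (the ATTGG and CCACG element).
Asns (chr6:7693210-7693252, minus strand): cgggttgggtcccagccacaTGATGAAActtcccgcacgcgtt
Chac1 (chr2:119351029-119351076, plus strand): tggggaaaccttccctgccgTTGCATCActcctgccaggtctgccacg
Herpud1 (chr8:94386357-94386407, plus strand): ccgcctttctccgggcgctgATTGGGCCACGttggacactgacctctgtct

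Several ER chaperones were among the most abundant transcripts in these cells. Per length, in the authors' FPKM (counts scaled to exon length and library total), Calr stood first of the 31 genes at a mean of 858, with a range of 835 to 868 over the 6 libraries. Pdia3 followed at 585 (567 to 603), Hsp90b1 at 581 (561 to 599), Hspa5 at 493 (483 to 502) and Canx at 336 (323 to 345). The libraries of Pdia3 and Hsp90b1 overlapped. Within a library Hsp90b1 was above Pdia3 in MSA-ZW replicate 3 only (576.04 against 575.77), so their order did not hold in every library. All of these genes lay above the 99th percentile of tested genes, and the median FPKM of tested genes was 6.48. Psat1, at 105, and Atf4, at 103, led the ATF4 branch, and their ranges over the 6 libraries overlapped. Psat1 was above Atf4 in each MSA-ZW library (105.76, 105.24 and 109.65 against 96.52, 99.43 and 103.59). It was below Atf4 in each MSA-DA library (104.3, 103.84 and 103.2 against 109.66, 104.13 and 106.18). This change of order was not tested. At the lower end were Ppp1r15a at 6.27, Sesn2 at 6.01, Trib3 at 3.43, Ern1 at 3.40 and Chac1 at 1.82. Chac1 therefore rested on only 42 to 56 counts per library, whereas Atf4 rested on 3717 to 4505.

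**Figure D1:**
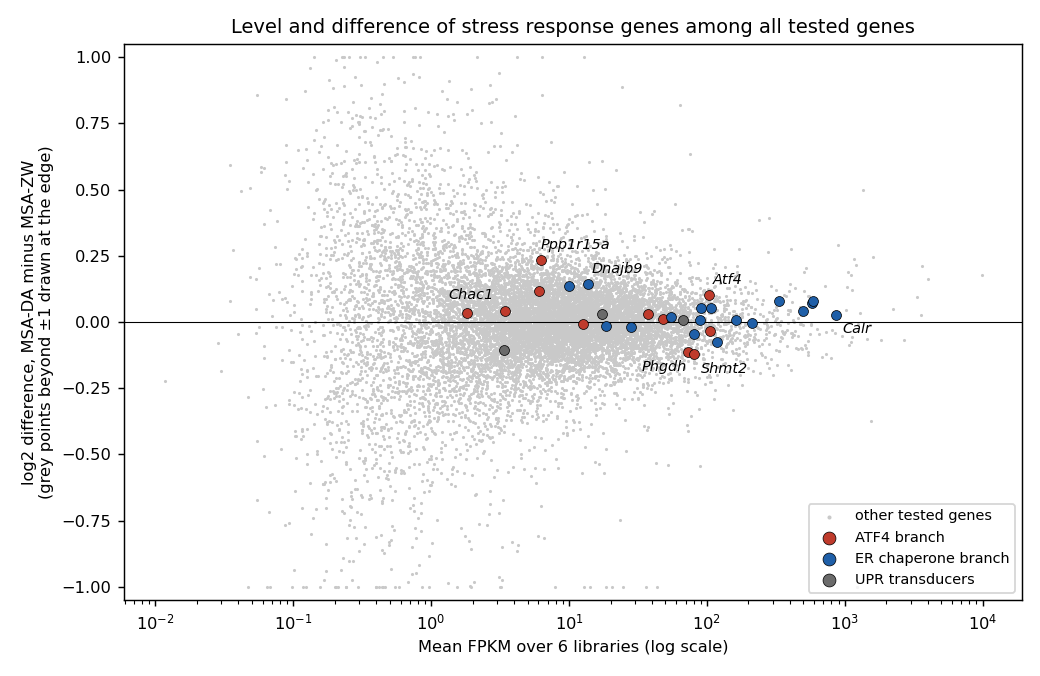
Mean FPKM over the 6 libraries (x axis, log scale) against the log2 difference of MSA-DA minus MSA-ZW (y axis) for all 12467 tested genes (grey) and the 31 stress response genes, coloured by branch. The stress genes span a mean FPKM of 1.82 to 858 and lie within a log2 difference of -0.12 to 0.23. The 52 tested genes beyond a log2 difference of -1 or 1 are drawn at the edge.

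Between the gels, few of these genes changed, and each change was small. The edgeR quasi-likelihood test, with adjusted p below 0.05 over all 12467 tested genes, called 6 of the 31 genes. Atf4, Hsp90b1, Pdia3 and Canx were higher on MSA-DA, and Phgdh and Shmt2 were lower. Across all tested genes 13.4% were called, 6.92% higher and 6.5% lower, against 19.4% of the 31 genes. Most of the 31 are abundant: 23 had a mean of at least 64 CPM, and all 6 called genes were among these. The called share of those 23 was 26.1%, and that of all 3695 genes at this level was 26.8%, so the count is near its background. The median log2 difference was 0.03 over the 31 genes and 0.00 over all tested genes, and the median absolute difference was 0.04 against 0.09, or against 0.06 for all genes of at least 64 CPM. The groups did not overlap in 13 of the 31 genes, which is 41.9%, against 28.4% of all tested genes. For the 23 abundant genes it was 10, or 43.5%, against 42.5% of all genes at that level.

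The intervals of this fit describe how precisely each difference was measured, given only the spread among the 6 libraries. They do not cover the choice of processing. In a fit corrected for GC content and length, given further on, the differences of Hsp90b1, Canx and Shmt2 lay outside these intervals. For 28 of the 31 genes the 95% interval of the difference lay within 1.25-fold in either direction, and for all 31 it lay within 1.5-fold. These bounds were chosen after the values were seen. The widest interval was that of Chac1, from 0.767 to 1.36 times the MSA-ZW level. The other genes that passed 1.25-fold at 1 end were Trib3 and Ppp1r15a.

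**Figure D2:**
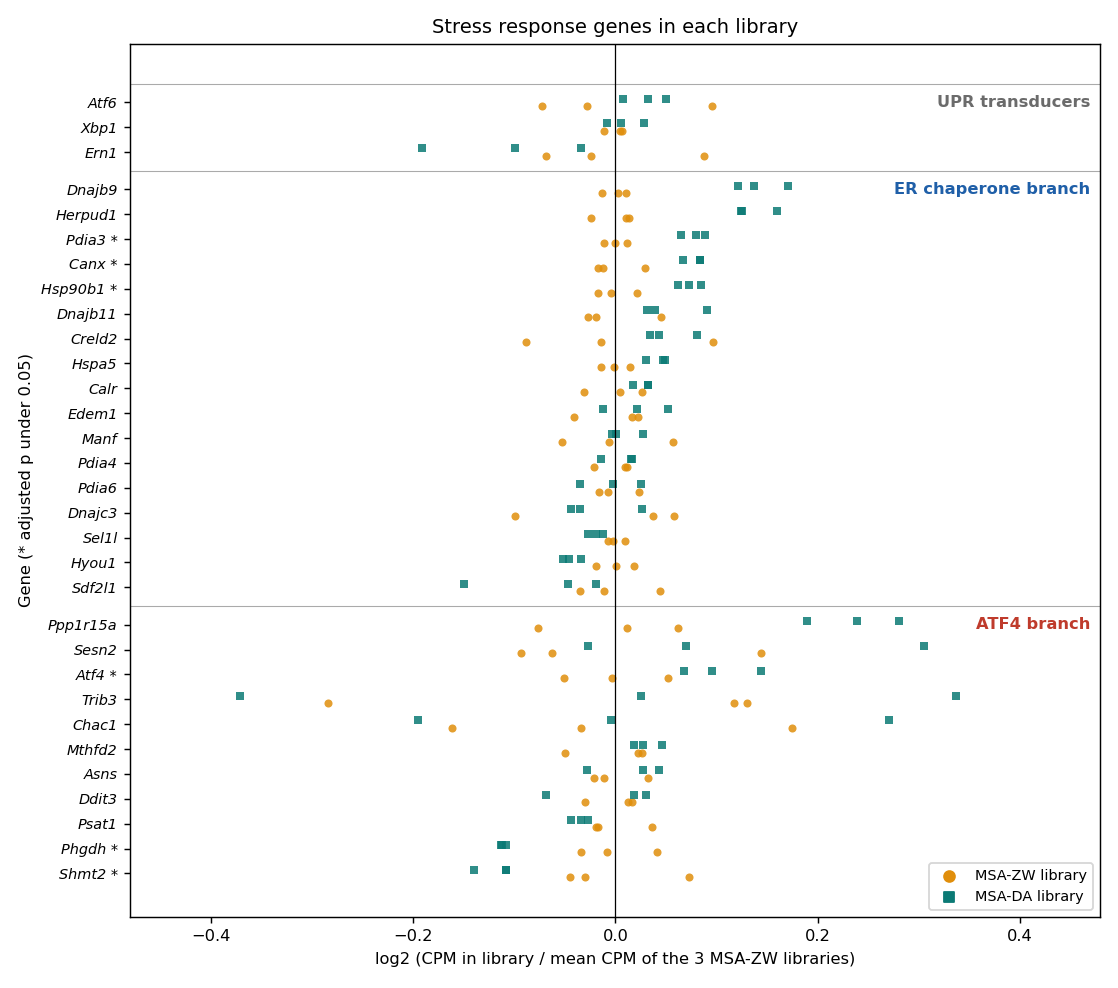
Each point is 1 library's CPM divided by the mean of the 3 MSA-ZW libraries, on a log2 scale (x axis), for each of the 31 genes (y axis), with MSA-ZW as circles and MSA-DA as squares. The 3 MSA-DA libraries lie clear of the 3 MSA-ZW libraries in 13 genes, and Trib3 and Chac1 scatter most within a group.

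Among the regulators of the ATF4 branch, only Atf4 itself passed. Atf4, the transcription factor that drives the programme (ENSMUSG00000042406, chromosome 15, 80139385 to 80141742, GRCm39), stood at 227, 235 and 244 CPM on MSA-ZW and at 259.7, 246 and 251 CPM on MSA-DA. All 3 MSA-DA libraries were above all 3 MSA-ZW libraries. This was a 1.07-fold rise (log2 difference 0.10, standard error 0.03, edgeR adjusted p = 0.0273). The call was lost when any library other than MSA-ZW replicate 3 was left out, with adjusted p from 0.0601 to 0.201 in those fits. DESeq2 did not call it either (adjusted p = 0.0653), nor did limma on log2(FPKM + 1) (adjusted p = 0.116).

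Ppp1r15a encodes the phosphatase subunit GADD34, which reverses eIF2 phosphorylation and restores translation. It had the largest difference of the 31 genes, at 17.0, 16.0 and 17.7 CPM on MSA-ZW and 20.5, 19.97 and 19.3 CPM on MSA-DA. The groups did not overlap and the means were 1.18-fold apart (log2 difference 0.23, standard error 0.08), but the edgeR adjusted p was 0.0517, just outside the threshold. It passed with limma on log2(FPKM + 1) (adjusted p = 0.0467) and, with edgeR, when MSA-ZW replicate 3 was left out (0.0448). It did not pass with DESeq2 (adjusted p = 0.195).

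Other regulators and feedback genes overlapped between the gels. Ddit3, which encodes the stress factor CHOP, stood at 22.1, 21.4 and 21.99 CPM on MSA-ZW and 22.1, 20.8 and 22.3 CPM on MSA-DA. Its interval ran from 0.894 to 1.105 times the MSA-ZW level (edgeR adjusted p = 0.964). Trib3, a pseudokinase that restrains ATF4 and CHOP, stood at 7.92, 5.94 and 7.84 against 5.59, 9.14 and 7.36 CPM. The lowest and the highest of its values were both on MSA-DA. Chac1, an enzyme that breaks down glutathione, stood at 3.32, 2.88 and 2.63 against 2.93, 2.57 and 3.55 CPM, and no difference was detectable at this depth. Sesn2, a leucine sensor that inhibits mTORC1, stood at 22.1, 19.2 and 18.8 against 24.7, 19.6 and 21.0 CPM (edgeR adjusted p = 0.444).

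Of the 5 biosynthetic enzymes of the ATF4 branch, 2 were lower on MSA-DA and 0 were higher. All 5 had a mean of at least 64 CPM, and 26.8% of all genes at that level were called. In the whole ATF4 branch 27.3% of the 11 genes were called, against 13.4% of all tested genes. Phgdh catalyses the first step of serine synthesis (ENSMUSG00000053398, chromosome 3, 98220486 to 98247306). It stood at 188, 185 and 195 CPM on MSA-ZW and at 175.5, 175.1 and 174.8 CPM on MSA-DA. The MSA-DA libraries were all lower and nearly equal, and the difference was 1.08-fold (log2 difference -0.11, standard error 0.03, edgeR adjusted p = 0.0131). Shmt2 encodes the mitochondrial enzyme that turns serine into glycine and a one-carbon unit (ENSMUSG00000025403, chromosome 10, 127352992 to 127358313). It stood at 254, 252 and 273 against 236, 241 and 241 CPM, 1.09-fold lower (log2 difference -0.12, standard error 0.03, edgeR adjusted p = 0.00933). The call of Phgdh was lost without MSA-DA replicate 2 (adjusted p = 0.0539) and that of Shmt2 without MSA-DA replicate 1 (0.0505). Limma on log2(FPKM + 1) did not call Shmt2 (adjusted p = 0.0676).

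Psat1, the aminotransferase between Phgdh and the end of serine synthesis, stood at 449, 448 and 465 against 446, 443 and 440.4 CPM. Its MSA-DA libraries were all below the MSA-ZW libraries, with a log2 difference of -0.04 that did not pass (edgeR adjusted p = 0.444). Asns, asparagine synthetase and a classical ATF4 target, stood at 129, 134 and 129.6 against 135, 128 and 133 CPM (adjusted p = 0.864). Mthfd2, the mitochondrial folate enzyme that follows Shmt2, stood at 124, 130.2 and 131 against 132, 129.8 and 131 CPM (adjusted p = 0.656). In both genes the groups overlapped and the interval stayed within 0.961 to 1.07 times the MSA-ZW level.

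The 3 transducers did not pass. Xbp1 stood at 217, 217 and 214 CPM on MSA-ZW and 215, 220.4 and 217 CPM on MSA-DA, with an interval from 0.965 to 1.049 times the MSA-ZW level. These counts add the spliced and unspliced forms of Xbp1 and do not tell them apart. Atf6 stood at 169.8, 156 and 151 against 165, 159.7 and 163 CPM. Ern1 was the least abundant, at 30.6, 27.5 and 28.4 against 28.2, 26.9 and 25.2 CPM, with a log2 difference of -0.11 and a standard error of 0.07 (edgeR adjusted p = 0.361).

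In the ER chaperone branch 3 of 17 genes passed, all higher on MSA-DA. That is 17.6%, between the 13.4% of all tested genes and the 26.8% of genes of at least 64 CPM. Of the 17 log2 differences 12 were above 0 and 5 below, against 6268 above and 6199 below over all tested genes. The branch median was 0.03, and 0.01 in the fit corrected for GC content and length. Hsp90b1, which encodes the ER form of Hsp90, GRP94 (ENSMUSG00000020048, chromosome 10, 86526073 to 86541373), stood at 2257, 2278 and 2318 CPM on MSA-ZW. On MSA-DA it stood at 2402, 2385 and 2422 CPM, above every MSA-ZW library, and the difference was 1.052-fold (log2 difference 0.07, standard error 0.02, edgeR adjusted p = 0.00546). Its neighbour in function Hspa5, the Hsp70 chaperone BiP and the usual marker of the unfolded protein response, stood at 2038, 2056 and 2079 against 2102, 2126 and 2129 CPM. These groups did not overlap either, but the difference of 1.03-fold did not pass (edgeR adjusted p = 0.136). The call of Hsp90b1 was lost without MSA-DA replicate 3 (adjusted p = 0.0726) and with limma on log2(FPKM + 1) (0.0600).

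Of the lectin chaperones that hold sugar-bearing proteins, the membrane-bound form passed and the soluble form did not. Canx, calnexin (ENSMUSG00000020368, chromosome 11, 50184788 to 50216500), stood at 1566, 1516 and 1521 against 1607, 1626 and 1626 CPM, 1.06-fold higher (edgeR adjusted p = 0.00775). Calr, calreticulin, stood at 2397, 2457 and 2494 against 2505, 2505 and 2479 CPM, and its groups overlapped (adjusted p = 0.383). Whether the pair differed from each other was not tested. The call of Canx was lost when MSA-ZW replicate 2, MSA-DA replicate 2 or MSA-DA replicate 3 was left out, with adjusted p of 0.0612, 0.0978 and 0.0706, and with limma on log2(FPKM + 1) (0.0701).

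Pdia3, the disulfide isomerase that works with both lectins (ENSMUSG00000027248, chromosome 2, 121244256 to 121269168), had the smallest p of the 31 genes. It stood at 1776, 1789 and 1803 CPM on MSA-ZW and 1903, 1872 and 1892 CPM on MSA-DA, 1.06-fold higher (log2 difference 0.08, standard error 0.02, edgeR adjusted p = 0.00462). Without MSA-DA replicate 1 its adjusted p was 0.0524. The other isomerases overlapped between the gels. Pdia4 stood at 383, 392.3 and 391.8 against 394, 385 and 393 CPM, and Pdia6 at 788, 793 and 809.8 against 778, 795 and 811 CPM. Their intervals stayed within 0.964 to 1.04 times the MSA-ZW level.

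The co-chaperones and related partners of Hspa5 given here did not pass with edgeR, and differences between these genes were not tested. Dnajb9, an IRE1 and XBP1 target, stood at 33.7, 33.5 and 33.2 CPM on MSA-ZW and 36.8, 37.7 and 36.4 CPM on MSA-DA, 1.11-fold apart with no overlap. It did not pass with edgeR (adjusted p = 0.108) and did with limma on log2(FPKM + 1) (adjusted p = 0.0448). Its log2 difference was 0.14, and 0.07 in the edgeR fit corrected for GC content and length (adjusted p = 0.550). Dnajb11 stood at 333, 335 and 350.2 against 361, 349 and 347 CPM, and Dnajc3 at 90.3, 100.7 and 99.3 against 93.8, 98.5 and 94.4 CPM. Sdf2l1, which binds the same chaperone complex, stood at 131, 133 and 138 against 132, 121 and 129.6 CPM, with a log2 difference of -0.07 (adjusted p = 0.207). Hyou1, the exchange factor GRP170, stood at 596, 588 and 604 against 582, 575 and 577 CPM, lower on MSA-DA in every library without passing (adjusted p = 0.270).

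The secreted stress proteins Creld2 and Manf overlapped, at 113, 129 and 119 against 128, 124 and 124 CPM, and at 301, 311 and 325 against 312, 313 and 319 CPM. Among the degradation genes, Herpud1, a scaffold of the ubiquitin ligase complex, stood at 21.999, 22.6 and 22.5 against 24.4, 24.4 and 25.0 CPM. Its MSA-DA libraries were all higher, by 1.099-fold, but it did not pass (adjusted p = 0.237). Edem1, which marks misfolded glycoproteins for removal, stood at 345, 361 and 359 against 360.2, 352 and 368 CPM. Sel1l, the adaptor of the ligase, stood at 241, 240.1 and 243 against 238, 237 and 239 CPM.

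**Figure D3:**
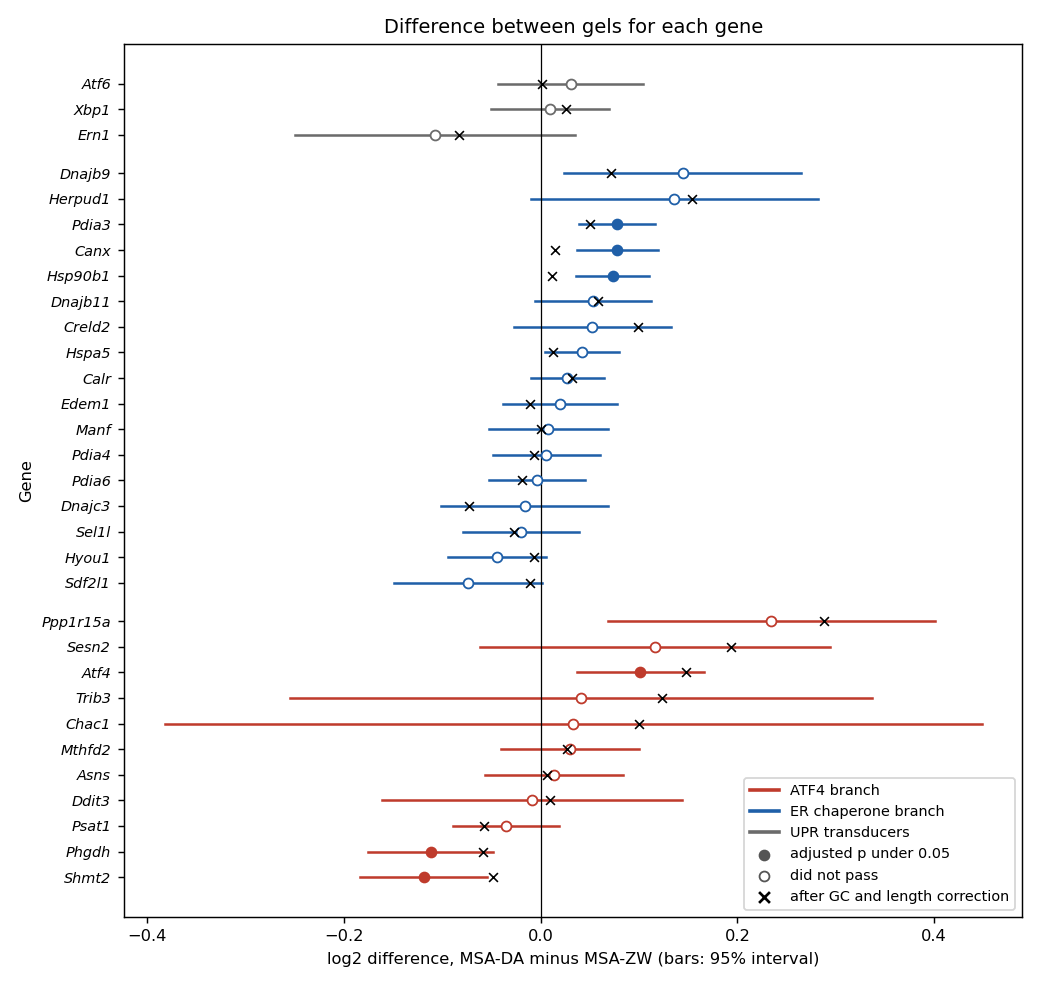
Log2 difference of MSA-DA minus MSA-ZW (x axis) with its 95% interval for each of the 31 genes (y axis), coloured by branch, with filled points for adjusted p under 0.05 and crosses for the difference after correction for GC content and length. Every interval stays within a log2 value of -0.38 to 0.45, and the crosses of Hsp90b1 and Canx sit at 0.01.

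Several calls depended on a joint correction for GC content and length, which were not corrected separately. Over 12329 tested genes with a known GC content, log2 differences fell with GC content (Spearman rho = -0.32 across genes, which are not independent), and over the 31 genes the rho was -0.13 before the correction and 0.27 after it. Transcript GC content was 42.9% for Hsp90b1, 42.4% for Canx and 47.1% for Pdia3, the ER genes that were called higher. It was 56.0% for Phgdh and 57.9% for Shmt2, which were called lower, but also 55.1% for Atf4, which was called higher, and 55.9% for Ppp1r15a, whose mean was higher. In a fit corrected for GC content and length, 10.7% of tested genes passed, and 3 of the 31 genes did, all higher on MSA-DA. These were Atf4 (log2 difference 0.15, edgeR adjusted p = 0.000166), Ppp1r15a (0.29, adjusted p = 0.0130) and Pdia3 (0.05, adjusted p = 0.0452). The differences of Hsp90b1 and Canx were each 0.01 after the correction (adjusted p = 0.757 and 0.721), and those of Phgdh and Shmt2 were -0.06 and -0.05 (adjusted p = 0.223 and 0.327). The branch counts therefore depended on this choice: the ATF4 branch had 1 higher and 2 lower without the correction and 2 higher and 0 lower with it, and the ER chaperone branch had 3 higher and then 1.

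The branches lay at different levels. Summed FPKM of the 17 ER chaperone genes was 3748, 3784 and 3841 on MSA-ZW, against 3885, 3868 and 3896 on MSA-DA, so every MSA-DA library was above every MSA-ZW library. The sum of the 11 ATF4 branch genes was 474, 474 and 494 against 478, 469 and 474, and these overlapped. The ratio of the ER sum to the ATF4 sum was 7.89 ± 0.108 on MSA-ZW and 8.198 ± 0.0579 on MSA-DA (SD, n = 3), a description with no test. The few most abundant chaperones make up most of the ER sum. The sums are not corrected for GC content and length. In the corrected fit the log2 differences of Hsp90b1, Canx and Hspa5 were each 0.01, that of Calr 0.03 and that of Pdia3 0.05. The median log2 difference was 0.03 in each branch, with ranges of -0.12 to 0.23 in the ATF4 branch and -0.07 to 0.14 in the ER chaperone branch.

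Of the 7 genes that share the ER stress response element, Hsp90b1 and Canx were called higher, while Hspa5, Creld2, Calr, Pdia6 and Dnajc3 did not pass, with log2 differences of 0.04, 0.05, 0.03, -0.00 and -0.02. Their median was 0.04 with the fit as run and 0.01 in the corrected fit. The 28.6% called is near the 26.8% of all genes of at least 64 CPM, and differences between these 7 genes were not tested. Of the genes whose promoters held TGATGNAA, Asns, Chac1 and Herpud1, none passed. No match in a window says only that these letters were not there.

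Other genes of the pathway were counted in lists beyond the 31. Of the eIF2 kinases, phosphatase and eIF2B genes 0 of 12 were higher and 1 was lower, or 8.33%, against 13.4% of all tested genes. The lower gene was Gcn1, the partner of the amino acid sensor GCN2, which fell from a mean of 157 ± 5.54 CPM to 143 ± 7.07 CPM (SD, n = 3, edgeR adjusted p = 0.012). It did not pass without MSA-ZW replicate 1 or MSA-DA replicate 3 (0.0531 and 0.122), in the corrected fit (0.341) or with limma on log2(FPKM + 1) (0.144). The genes of the kinases PERK and GCN2 were among the 11 that did not pass.

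Other ATF4 target genes gave 2 higher and 2 lower of 23 tested, or 17.4%, against 13.4% of all tested genes. Slc7a11, the cystine transporter that is also an NRF2 target, stood at 374 ± 13.7 CPM on MSA-DA against 303 ± 12.1 CPM, 1.23-fold higher (SD, n = 3, edgeR adjusted p = 8e-09). Slc38a2, a transporter of small neutral amino acids, stood at 547 ± 3.41 against 493 ± 7.54 CPM, 1.11-fold higher (edgeR adjusted p = 5.66e-05). Both kept their call in all 17 alternative fits, which none of the 31 genes did. Aldh18a1, of proline synthesis, was 1.09-fold lower (edgeR adjusted p = 0.0101) and Slc7a5, the leucine transporter, 1.08-fold lower (adjusted p = 0.0445), and neither passed in the corrected fit. Aldh18a1 did not pass without MSA-DA replicate 2 (0.0737). Slc7a5 did not pass without MSA-ZW replicate 1, MSA-ZW replicate 2, MSA-DA replicate 2 or MSA-DA replicate 3 (0.0539 to 0.190), with DESeq2 (0.140) or with limma on log2(FPKM + 1) (0.0828). Vldlr and Fgf21 had 0 counts in every library, and Gdf15 and Cbs had too few to be tested.

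Cytosolic aminoacyl-tRNA synthetases, many of which ATF4 raises, were higher in 0 and lower in 3 of 20, or 15.0%, against 13.4% of all tested genes. All 20 had a mean of at least 64 CPM, and their share was below the 26.8% called among all genes at that level. Wars, for tryptophan and also an interferon-induced gene, stood at 218 ± 3.38 CPM on MSA-DA against 239 ± 2.09 CPM (SD, n = 3, edgeR adjusted p = 0.00134). Kars, for lysine, was 1.09-fold lower (adjusted p = 0.00668), and so was Vars, for valine (adjusted p = 0.00886). Kars did not pass without MSA-DA replicate 3 (0.0718), and Vars did not pass without MSA-ZW replicate 1 (0.0645) or in the corrected fit (0.610). With limma on log2(FPKM + 1) neither passed (0.0603 and 0.0716). The median log2 difference of the list was 0.01.

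Other ER folding factors gave 0 calls in 18 tested genes, and other degradation factors gave 0 calls in 16, with medians of -0.01 and 0.00. In the corrected fit each list had 1 call. The folding gene Serp1 was lower (log2 difference -0.12, edgeR adjusted p = 0.00267). The degradation gene Aup1 was higher (log2 difference 0.12, edgeR adjusted p = 0.00891). Both are named after their values were seen. Genes for translocation into the ER and signal peptide removal gave 4 higher and 1 lower of 15, or 33.3%, with a median of 0.07. That median was 0.03 in the corrected fit. All tested genes gave 13.4%, and genes of at least 64 CPM gave 26.8%. Sec11c, a signal peptidase subunit, stood at 109.8 ± 2.11 CPM on MSA-DA against 95.7 ± 3.25 CPM, 1.15-fold higher (SD, n = 3, edgeR adjusted p = 0.000312). Spcs3, of the same enzyme, was 1.12-fold higher (adjusted p = 8.04e-05), as was Sec63, which recruits Hspa5 to the translocon (adjusted p = 0.000393). Ssr3, a translocon-associated subunit named after its value was seen, was 1.097-fold higher (adjusted p = 0.000795). Sec61a1, the translocon channel itself, was 1.08-fold lower (adjusted p = 0.00918). In the corrected fit Sec11c, Spcs3 and Sec63 were still higher and Sec61a1 lower, with adjusted p of 0.000501, 0.0314, 0.0278 and 0.0207, while Ssr3 did not pass (0.195). Without MSA-DA replicate 3 the adjusted p of Sec61a1 was 0.0506. Of 7 genes that process ATF6 or act beside IRE1, 1 was lower, or 14.3%, near the 13.4% of all tested genes. This was the kinase gene Map3k5 (adjusted p = 0.0262). It did not pass without MSA-ZW replicate 1, MSA-ZW replicate 3, MSA-DA replicate 1 or MSA-DA replicate 3 (0.0539 to 0.151), with DESeq2 (0.107) or with limma on log2(FPKM + 1) (0.0882).

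**Figure D4:**
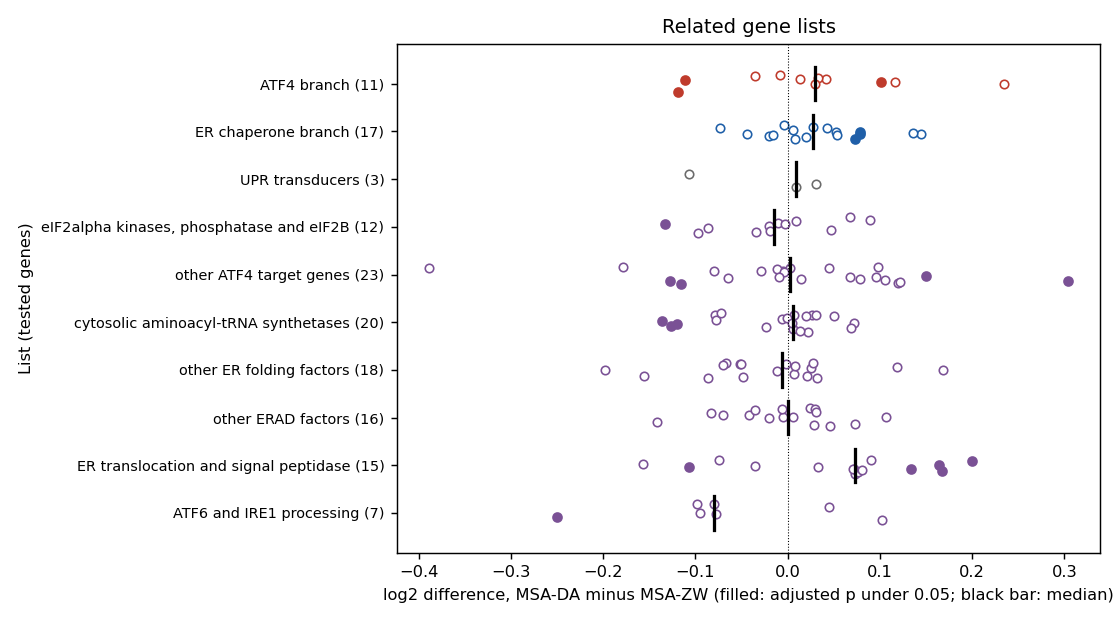
Log2 difference of MSA-DA minus MSA-ZW (x axis) for every tested gene of the 3 branches and 7 related lists (y axis, number tested in brackets), with filled points for adjusted p under 0.05 and a black bar at each median. Medians lie between -0.08 and 0.07, and the translocation list has the most filled points above 0. Values are not corrected for GC content and length.

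Neighbouring genes touched few of these values. Whether the authors' counting used strand is not stated, so reads of overlapping genes cannot be separated. Ddit3 overlaps Mars1 by 68 bases on the opposite strand, and Mars1 had 2147 to 2916 counts against at least 316 for Ddit3. Manf spans Dcaf1 and Rbm15b, which had at most 899 and 704 counts against at least 4464 for Manf. Genes overlapping any other of the 31 had at most 101 counts in a library. The pseudogene Phgdh-ps1 had 5 to 19 counts, and Calr-ps had 0.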

How the data were processed

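The authors deposited 1 table with raw counts and FPKM values per library, per the file headers. The submitters' processing notes name HISAT2 2.2.1, build GRCm39, bcl2fastq 2.20.0.422 and cutadapt 1.9.1. How reads were assigned to genes, and with which annotation release, is not stated there. Gene lengths are those of the deposited table, per the file headers.

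The deposited counts were tested with edgeR 4.0.16 in R 4.3.3 (quasi-likelihood F test, TMM scaling, default low-count filter, a term for gel only), with Benjamini-Hochberg adjustment over 12467 genes. All 31 genes passed the low-count filter. The standard error is the log2 difference divided by the square root of F, and 95% intervals use the fit's t quantile. The common biological coefficient of variation was 3.04%. Alternatives were DESeq2 1.42.0, limma 3.58.1 on log2(FPKM + 1) with genes of FPKM at least 1 in at least 3 libraries, other pseudocounts, filters and scalings, a replicate block, each library left out, and per-library loess offsets on GC content (GENCODE M21 transcripts, matched by gene ID) and length. Log2(FPKM + 1) understates changes of low genes. The fits were also run on simulated counts that held no GC or length trend, so that run has no bearing on the choice of correction.

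All 31 genes were named. From each related list the called genes with the largest differences were named, at most 3 in each direction, with a mean FPKM of at least 1. Genes and lists were chosen with earlier results of these data known. One marker list is not reported here.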

Additional observations from a re-analysis of the deposited data

How the results depend on the processing

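Counts below are genes at adjusted p under 0.05. In the fit as reported the ATF4 branch had 1 higher and 2 lower, the ER chaperone branch 3 higher and 0 lower, and the transducers 0 and 0, with 1673 calls in all. The ER chaperone genes lower and both transducer counts were 0 in all 17 alternatives. Leaving out 1 library at a time gave 0 to 2 higher and 1 to 2 lower in the ATF4 branch, 1 to 3 higher in the ER chaperone branch, and 1001 to 1654 calls in all, the fewest without MSA-DA replicate 2. DESeq2 gave 0 higher in the ATF4 branch and 942 calls in all. Limma on log2(FPKM + 1) gave 1 lower in the ATF4 branch and 906 calls in all, and with a pseudocount of 0.1 it gave 1 and 895. Without a filter on FPKM, limma gave 0 higher and 0 lower in the ATF4 branch, 0 higher in the ER chaperone branch and 412 calls. With GC and length offsets the ATF4 branch had 2 higher and 0 lower and the ER chaperone branch 1 higher. With those offsets and the replicate block it was 2, 0 and 0. The replicate block alone gave the same branch counts, 1, 2 and 3, with 1594 calls in all. Same-numbered libraries of the groups were not treated as pairs in the fit as reported. Their deviations from the group means correlated at -0.00 to 0.02, which cannot show whether they shared a day or batch. Apart from the GC and length corrections, scaling changed no branch count. Of 527 single-gene values under an alternative, 36 lost and 7 gained a call, and 29 changed sign, in 11 genes that passed in neither fit, with a size of at most 0.16 after the change. No call of the 31 genes held in all 17 alternatives, and 23 genes passed in none. The lowest counts were those of Chac1 (42 to 56 per library) and Trib3 (80 to 167), which also had the widest intervals.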

Other observations

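Among the other ATF4 target genes, Atf5 and Slc3a2 passed only in the fit corrected for GC content and length. They are named here after their values were seen. In the ER lists Serp1, lower on MSA-DA, and Aup1, higher, gained a call in the same fit, as given above. Atf5, an ATF4-related factor of the mitochondrial stress response, had a corrected log2 difference of 0.20 (edgeR adjusted p = 0.0162). Slc3a2, the heavy chain that partners both Slc7a11 and Slc7a5, had 0.11 (edgeR adjusted p = 0.00799). With Slc7a11 and Slc38a2, that made 4 of 23 other ATF4 target genes higher and 0 lower, against 2 and 2 without the correction. Either way 17.4% of the list was called, against 10.7% of all tested genes in the corrected fit and 13.4% without the correction.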
